A study of Bos taurus with 24 samples.

Results

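The transcripts described here belong to a set of genes whose mRNA is made by the growing oocyte and stored in the egg. The set was drawn up by gene symbol as GDF9, BMP15, ZAR1, NLRP5, OOEP, BTG4, NPM2, KPNA7, H1FOO and MOS. Of these 10 symbols, 9 were found among the 24621 genes of the count table, and MOS, a kinase of the meiotic MAPK pathway, was not analysed here. Each gene was followed embryo by embryo across the 3 culture conditions.

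The study sequenced 24 single early blastocysts of cattle, with 8 embryos in each of 3 conditions: in vivo, culture with serum and culture without serum. The in vivo derived embryos (A1 to A9, 5 male and 3 female) were flushed from 3 superovulated Holstein cows. The embryos produced in vitro came from oocytes of slaughterhouse ovaries of Holstein cows in 3 experiments. They were matured with fetal bovine serum and cultured in synthetic oviduct fluid with serum (B1 to B8, 3 male and 5 female), or matured with epidermal growth factor and cultured in synthetic oviduct fluid with albumin, insulin, transferrin and selenium (C1 to C10, 5 male and 3 female). Semen of the same Holstein bull was used for all embryos, and all were of the best quality grade. The in vivo derived embryos were flushed on the same day after insemination, and those produced in vitro were harvested on that day or the day before. The day of each embryo is not known here, so age cannot be told apart from culture. The labels do not tie embryos to a donor cow, an ovary batch or an experiment, so these cannot be told apart from the spread between embryos. The oocytes of the in vivo derived embryos were also matured in vivo, so maturation and culture cannot be told apart in any comparison with them. Serum and serum-free embryos differed in maturation medium as well as culture medium, so the same holds for comparisons between them.

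An oocyte stops most transcription before it is fertilised and relies on stored mRNA through the cleavage divisions. The stored mRNA is then shortened at its poly(A) tail and degraded while the embryonic genome takes over, and the oocyte's own transcripts are mostly lost well before the blastocyst forms. GDF9 and BMP15 encode growth factors that the oocyte secretes onto its cumulus cells, ZAR1 and BTG4 act on maternal mRNA, NLRP5 and OOEP encode parts of the subcortical maternal complex, and NPM2, H1FOO and KPNA7 serve the egg's chromatin and nuclear import.

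The embryos had total exon counts of 3253051 to 9000447, so that 3 counts, the floor that a count of 0 allows, corresponded to 0.342 to 0.921 CPM (exon counts scaled to 1000000 per embryo after normalisation) across embryos. Such floors cover counting error only. The blastocyst identity of the samples was checked on KRT8 and KRT18, keratins of the trophectoderm: KRT8 reached 5896 to 11590 CPM in vivo, 3781 to 23017 CPM in serum-free embryos and 38.9 to 3982 CPM in serum embryos. Serum embryo B2 stood apart, with a mean correlation of 0.779 with the other serum embryos (0.863 to 0.896 for those). It had the lowest KRT8 level of all embryos and 0.712 CPM of GATA3, a trophectoderm factor. TFAP2C, a further trophectoderm marker, was not low in B2, at 226 CPM against a serum median of 225 CPM. Low KRT8 was not confined to B2 either, as B7 had 70.3 CPM and B5 211 CPM. Because B2 was least like its group, tests of all serum embryos, and comparisons of the sexes in which B2 decides a value, are also given without it.

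Most of the 9 transcripts were scarce but were still detected. Every embryo had a count for at least 3 of them, and embryos A9, B8 and C1 had a count for all 9. The number detected per embryo was 5.75 ± 1.75 in vivo, 6.38 ± 2.20 in serum and 7.13 ± 1.25 in serum-free embryos (mean ± SD, n = 8 each), and the ranges overlapped. The summed level of the 9 transcripts ran from 3.13 to 56.2 CPM in vivo (median 7.86), from 8.23 to 231 CPM in serum (median 28.1) and from 23.1 to 611 CPM in serum-free embryos (median 109). The highest value of each condition came from A9, B2 and C1, respectively, and the ranges of the 3 conditions overlapped. OOEP alone had a count in all 24 embryos, BTG4 had one in 21 and GDF9 in 20, whereas H1FOO had one in 13.

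**Figure D1:**
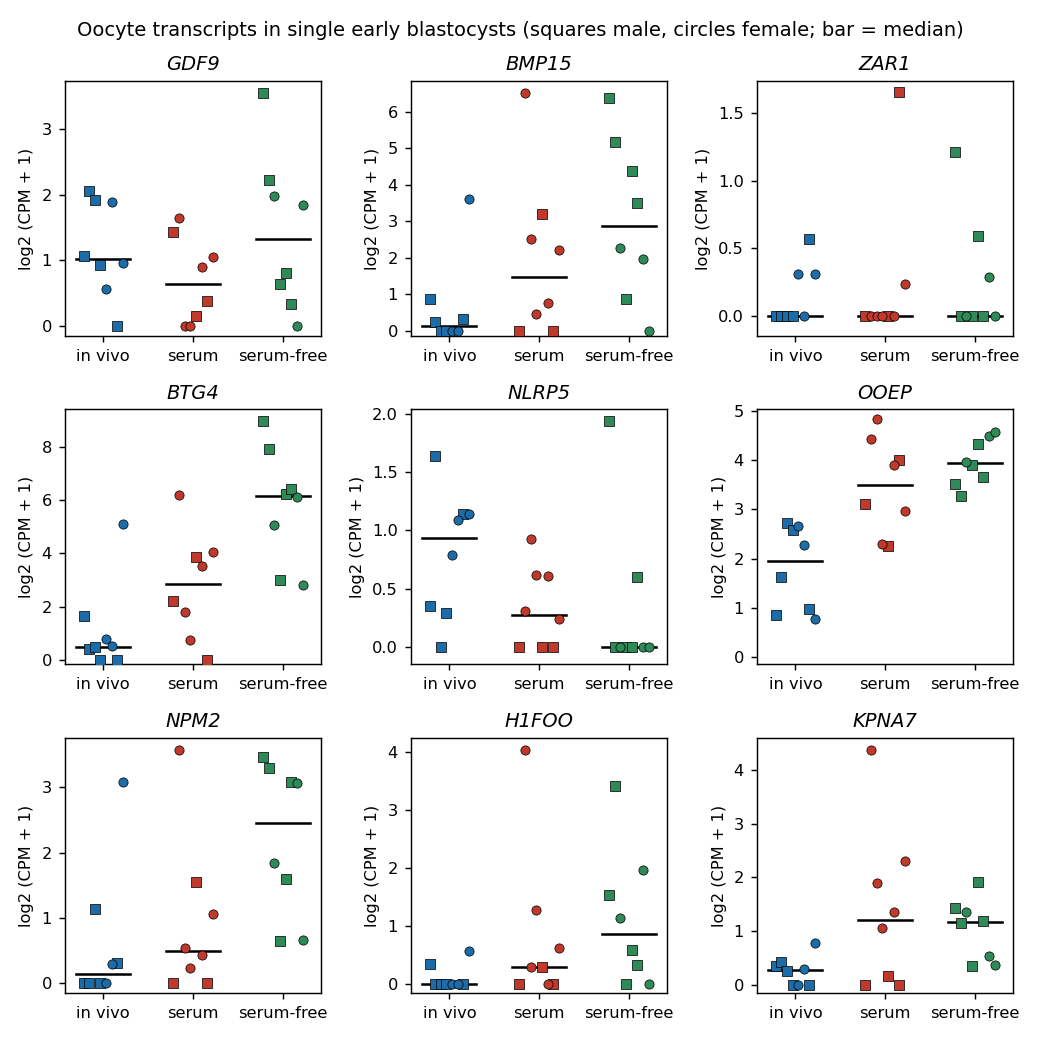
Level of each transcript in each embryo, as log2 (CPM + 1) on the vertical axis of each panel, by culture condition. Squares are male embryos, circles are female embryos and the bar is the median of 8 embryos. For OOEP, all 8 serum-free embryos lie above all 8 in vivo derived embryos, and for BMP15, BTG4 and NPM2 a lone in vivo derived embryo, A9, lies far above the rest of its group.

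**Figure D2:**
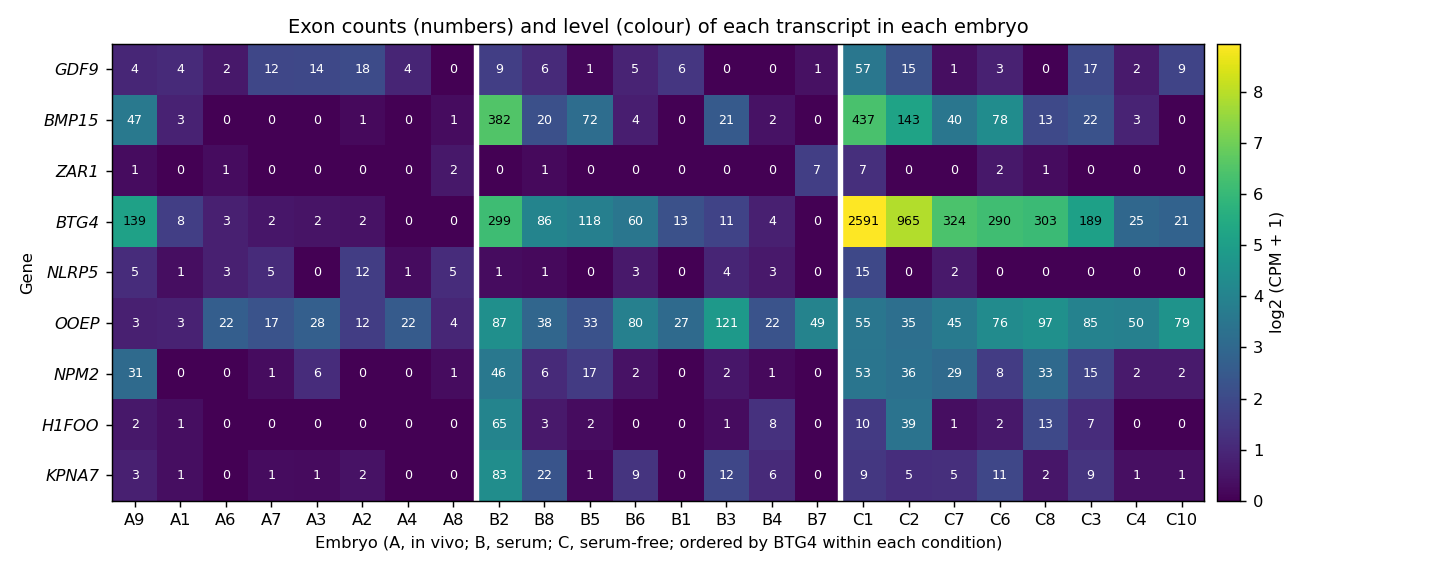
Exon counts (printed numbers) and levels (colour, log2 (CPM + 1)) of the 9 transcripts in each of the 24 embryos, ordered by BTG4 within each condition. Embryos A9, B2 and C1 lead their conditions for BMP15, BTG4 and NPM2, while OOEP is spread evenly within each condition.

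OOEP, which encodes an RNA-binding subunit of the subcortical maternal complex under the egg's surface, was higher in both kinds of cultured embryos than in vivo. Its counts in vivo ran from 3 to 28 with a median of 14.5, those in serum from 22 to 121 with a median of 43.5, and those in serum-free embryos from 35 to 97 with a median of 65.5. In normalised levels this was 3.04 ± 2.12 CPM in vivo, 12.4 ± 8.47 CPM in serum and 15.3 ± 5.30 CPM in serum-free embryos (mean ± SD, n = 8 each). No in vivo derived embryo exceeded 5.58 CPM and no serum-free embryo fell under 8.61 CPM, so those groups did not overlap, as held for 0.219% of genes with at least 1 count in these embryos that were higher in serum-free embryos. The serum embryos overlapped the in vivo derived ones, with a lowest level of 3.76 CPM and a highest of 27.4 CPM, in B3.

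A gene entered a test when 1 of the groups set against each other had 15 or more counts in each of its embryos. It was called if the Benjamini-Hochberg adjusted p-value was under 0.05 and the groups differed at least 2-fold. Against in vivo derived embryos, OOEP was 4.04-fold higher in serum (log2 fold change 2.01, SE 0.52, edgeR quasi-likelihood test, adjusted p = 0.00779) and 5.02-fold higher in serum-free embryos (log2 fold change 2.33, SE 0.40, adjusted p = 0.00212). It was the only one of the 9 transcripts tested in serum, where 6.43% of 7339 genes were called higher. OOEP passed the filter through the cultured embryos, since 4 of 8 in vivo derived embryos had under 15 counts, and a gene that passes in this way is more apt to differ. Both comparisons share the in vivo derived embryos. Without any 1 embryo the call in serum held, with log2 fold changes of 1.73 to 2.21, and so did that in serum-free embryos, with 2.20 to 2.51. Without B2, and with all genes of at least 1 count tested, OOEP was still called in serum, as the only one of the 9 transcripts (log2 fold change 1.86, SE 0.55, edgeR adjusted p = 0.0279, with 6.51% of genes called). These are whole embryos, so fewer cells that hold a transcript and less of it per cell cannot be told apart.

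Between both culture media OOEP was not called. The log2 difference was -0.32 for serum minus serum-free (SE 0.40, edgeR adjusted p = 0.607), and it stayed between -0.58 and -0.15 when any 1 embryo was left out. NLRP5, which encodes a further member of the same complex, had only 0 to 15 counts in any embryo. In vivo derived embryos had a median of 4 NLRP5 counts (0 to 12) and 7 of 8 had at least 1. Serum embryos had a median of 1 count (0 to 4), and 6 of 8 serum-free embryos had none, with 2 counts in C7 and 15 in C1. The order of the medians for NLRP5 was thus the opposite of that for OOEP, but the groups overlapped. Tested among all genes with at least 1 count, its log2 fold change was -1.46 in serum (SE 0.94, edgeR adjusted p = 0.332; -1.41 without B2) and -0.96 in serum-free embryos (SE 1.05, edgeR adjusted p = 0.699).

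BTG4, the adaptor that brings the CCR4-NOT deadenylase to maternal mRNA, had the widest range of counts of the 9 transcripts. Its counts ran from 0 to 139 in vivo (median 2), from 0 to 299 in serum (median 36.5) and from 21 to 2591 in serum-free embryos (median 296.5). The levels had medians of 0.424, 7.05 and 70.1 CPM in the same order. In vivo, 7 of 8 embryos had at most 8 counts and A9 alone had 139, or 33.3 CPM. Among serum-free embryos C1 had 489 CPM, C10 and C4 had the fewest counts, 21 and 25, and every embryo exceeded every in vivo derived embryo other than A9.

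BTG4 was higher in serum-free than in in vivo derived embryos, at 124 ± 165 against 4.67 ± 11.6 CPM (mean ± SD, n = 8 each). The log2 fold change was 4.76 (SE 1.04, edgeR adjusted p = 0.0108), or 27.2-fold, so that 2 of 9 transcripts were tested and both were called, where 1.61% of 7314 genes were called higher. BTG4 passed the filter only through the serum-free embryos, where it was high. The fold depended on single embryos: it was 7.80 on the log2 scale without A9 (edgeR adjusted p = 0.000522) and 3.98 without C1 (edgeR adjusted p = 0.0247), and the call held without any 1 embryo. In serum embryos BTG4 had 14.6 ± 23.5 CPM (mean ± SD, n = 8), with 71.0 CPM in B2. It was tested against in vivo only among all genes with at least 1 count, where the log2 fold change was 1.59 (SE 1.07, edgeR adjusted p = 0.355), and 0.55 without B2 (SE 1.02, edgeR adjusted p = 0.765).

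The level of BTG4 in serum was lower than in serum-free embryos, by a log2 difference of -3.09 (SE 0.95, edgeR adjusted p = 0.034), an 8.51-fold difference. Of 2 transcripts tested in this comparison it was the only one called, and 5.36% of 7181 genes were called lower in serum. BTG4 passed the filter only through the serum-free embryos, since only 4 of 8 serum embryos had at least 15 counts. Without B2, the highest of the serum embryos, the difference was -4.18 (edgeR adjusted p = 0.00763). The call was lost, however, without C1 (-2.29, edgeR adjusted p = 0.0897), and also without any 1 of C2, C7, B3, B5 and B7 (-3.14 to -2.87, edgeR adjusted p-values of 0.0508 to 0.0589). With sex as a covariate it was lost too (-2.82, edgeR adjusted p = 0.133), and the conditions held unequal numbers of males and females. ZAR1, which encodes an RNA-binding protein of stored maternal mRNA, had a count in only 8 of the 24 embryos, and at most 7 counts, in B7 and C1.

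The growth factor BMP15 also ranged widely between embryos of a condition. Its counts ran from 0 to 47 in vivo (median 0.5), from 0 to 382 in serum (median 12) and from 0 to 437 in serum-free embryos (median 31). The highest of each group were again A9, B2 and C1, with 11.2, 90.7 and 82.5 CPM, and the groups overlapped at 0. BMP15 did not pass the filter of 15 counts in any condition. Tested among all genes with at least 1 count, its log2 fold change over in vivo was 3.63 in serum-free embryos (SE 1.05, edgeR adjusted p = 0.0773) and 3.01 in serum (SE 1.26, edgeR adjusted p = 0.127). Without B2 the latter was 0.73 (SE 1.15, edgeR adjusted p = 0.722).

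GDF9 is the partner of BMP15 in signalling to cumulus cells. It had 0 to 18 counts in vivo (median 4), 0 to 9 in serum (median 3) and 0 to 57 in serum-free embryos (median 6). In vivo the highest counts were those of A2, A3 and A7 (18, 14 and 12), and A9, which had the most BMP15, had 4. In serum and serum-free embryos the same embryo had the highest level of both, B2 (9 GDF9 counts) and C1 (57 GDF9 counts). Over 24 embryos, with condition means subtracted, the Pearson correlation of GDF9 and BMP15 was 0.32 (Spearman 0.22), and it was 0.10 without C1 and C8. The log2 fold changes of GDF9 over in vivo were -0.99 in serum (SE 0.91, edgeR adjusted p = 0.495, and -1.36 without B2) and 0.81 in serum-free embryos (SE 0.82, edgeR adjusted p = 0.665), in the test of genes with at least 1 count. Genes that carry the signal of these factors (receptors, SMAD proteins, furin and others) were tested in 5 cases, and none was called in serum or in serum-free embryos, where edgeR called 13.8% and 2.2% of all genes in either direction. The median log2 fold change of these 5 was -0.27 in serum and 0.20 in serum-free embryos, against 0.01 and 0.00 over all genes tested. Without B2 again none was called in serum by edgeR (median -0.08), where 12% of genes were.

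NPM2, a nucleoplasmin that stores histones in the egg and helps to remodel sperm chromatin, had 0 to 31 counts in vivo (median 0.5), 0 to 46 in serum (median 2) and 2 to 53 in serum-free embryos (median 22). A9 held 31 of the 39 NPM2 counts in vivo and B2 held 46 of the 74 in serum, whereas 5 of 8 serum-free embryos had at least 15 counts. With all genes of at least 1 count tested, the log2 fold change of NPM2 over in vivo was 2.09 in serum-free embryos (SE 0.93, edgeR adjusted p = 0.266) and 0.63 in serum (SE 1.18, edgeR adjusted p = 0.764). Without B2 the latter was -0.86 (SE 1.17, edgeR adjusted p = 0.67), so its sign rests on that embryo.

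H1FOO, the linker histone of the oocyte, was almost undetected in vivo, with 3 counts over 8 embryos. Serum embryos had 0 to 65 counts with a median of 1.5, and serum-free embryos had 0 to 39 with a median of 4.5. B2 held 65 of the 79 counts in serum, and C2 held 39 of the 72 in serum-free embryos. The pooled rate was 22.9 times that in vivo in serum (exact 95% interval 7.55 to 113) and 24.8 times in serum-free embryos (8.16 to 123), intervals that cover counting error only and not the spread between embryos. Without B2 the ratio in serum was 4.52 (exact 95% interval 1.26 to 24.5), from 14 counts against 3. KPNA7, an importin alpha of oocytes and cleaving embryos, had 0 to 3 counts in vivo (median 1), 0 to 83 in serum (median 7.5) and 1 to 11 in serum-free embryos (median 5). B2 was again the highest serum embryo.

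With all genes of at least 1 count tested, 3 of the 9 transcripts were called higher in serum than in vivo, OOEP, H1FOO and KPNA7, where 3.9% of 19159 genes were. The log2 fold change was 4.20 for H1FOO (SE 1.35, edgeR adjusted p = 0.0459) and 3.80 for KPNA7 (SE 1.12, edgeR adjusted p = 0.0293). Both calls were lost without B2, when the values were 1.74 (SE 1.12, edgeR adjusted p = 0.338) and 2.48 (SE 1.05, edgeR adjusted p = 0.129). The calls were also lost without single in vivo derived embryos (any but A9 for H1FOO, and A3, A4, A6, A7 or A8 for KPNA7) and, for H1FOO, without B4. H1FOO was called in 7 and KPNA7 in 10 of 16 fits that left out 1 embryo, and for either gene the highest edgeR adjusted p-value was that without B2. In serum-free embryos the same test called BTG4 and OOEP only, where 0.6% of 19171 genes were called higher. H1FOO (log2 fold change 4.15, SE 1.15, edgeR adjusted p = 0.0653) and KPNA7 (2.28, SE 0.86, edgeR adjusted p = 0.183) did not pass. The median log2 fold change of the 9 transcripts was 1.59 in serum and 2.28 in serum-free embryos, against -0.04 and 0.03 over all genes in the same tests. B2 carried much of the value in serum, which was 0.73 without it, against -0.05 over all genes.

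**Figure D3:**
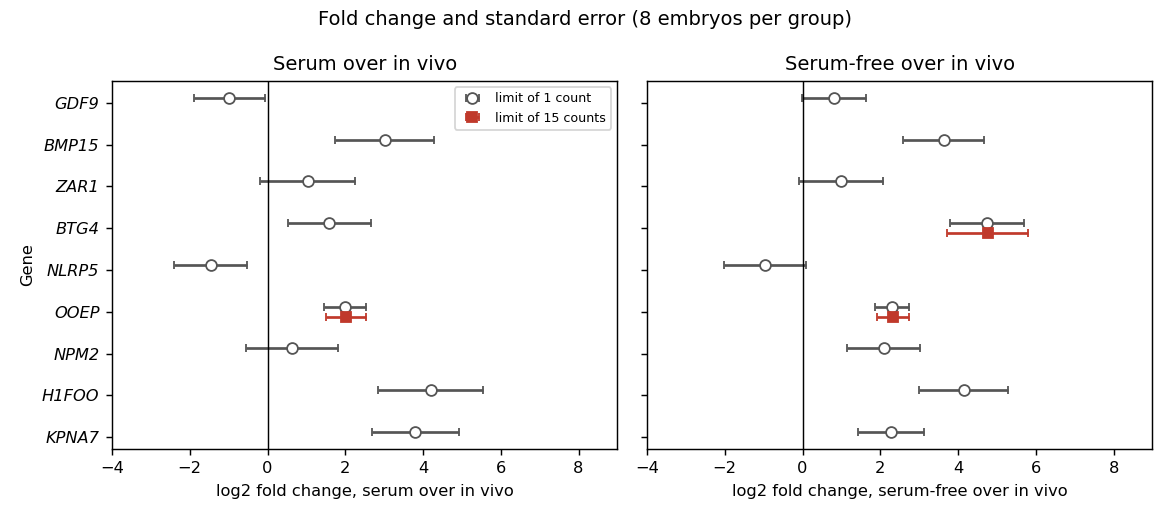
Log2 fold change over in vivo derived embryos (horizontal axis) of each transcript in serum (left) and serum-free (right) embryos, 8 embryos per group. Open circles are the tests of all genes with at least 1 count, red squares those with the filter of 15 counts, and bars are standard errors. OOEP lies near 2 in both panels, and BTG4 lies at 1.59 in serum and at 4.76 (filter of 15 counts) in serum-free embryos.

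Several of these transcripts were high in the same embryos. After the mean of each condition was subtracted, log2 (CPM + 1) of BMP15 and BTG4 had a Pearson correlation of 0.89 over the 24 embryos (Spearman 0.76), BTG4 and NPM2 one of 0.88 (Spearman 0.76) and BMP15 and NPM2 one of 0.85 (Spearman 0.75). Without the 2 embryos farthest from the median of the former gene, these Pearson values were 0.86, 0.80 and 0.78. These are descriptions over embryos that share medium, donors and library preparation, and 28 pairs of 8 transcripts were computed. OOEP did not vary with them: its correlation was -0.27 with BTG4 (Spearman -0.29), -0.17 with BMP15 and -0.15 with NPM2. C1 was among the 4 highest embryos for 7 transcripts, B2 and C2 for 5 each and C6 for 4, whereas 10 embryos were among them for none.

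**Figure D4:**
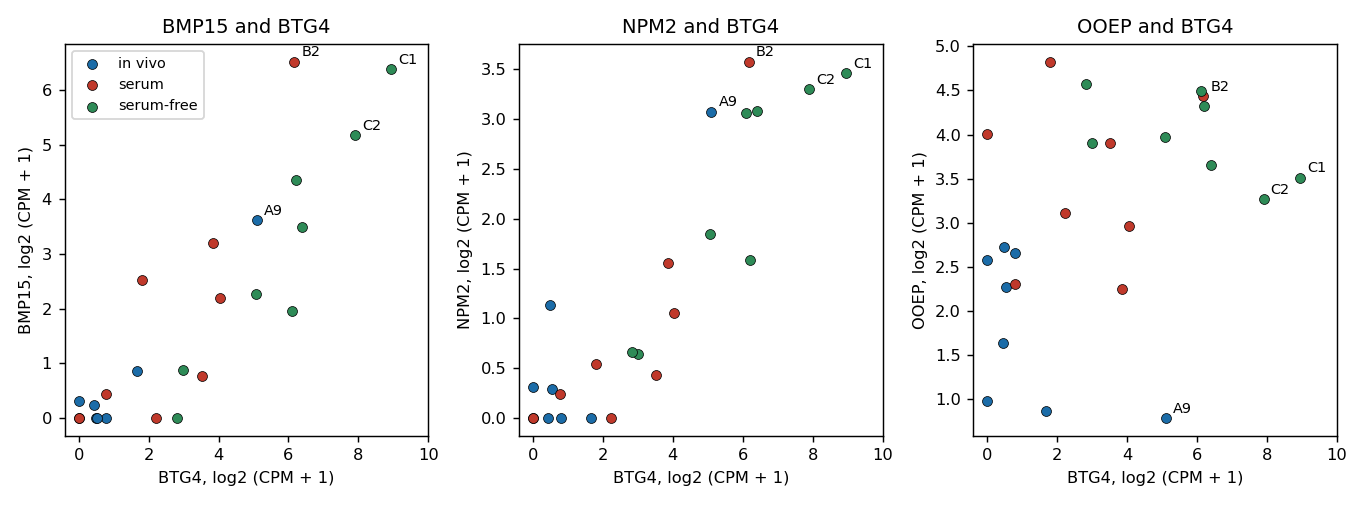
Level of BMP15, NPM2 and OOEP (vertical axes) against BTG4 (horizontal axis), log2 (CPM + 1), for 24 embryos coloured by condition. BMP15 and NPM2 rise with BTG4 across embryos of all 3 conditions, and OOEP shows no such rise. C1 and C2 have the most BTG4, and A9 and B2 have the highest BTG4, BMP15 and NPM2 levels of their own conditions.

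Markers of the cumulus and granulosa were measured as well. The 11 cumulus and granulosa markers in the table had summed levels of 13.9 to 46.9 CPM in vivo, 3.38 to 46.3 CPM in serum and 8.12 to 52.4 CPM in serum-free embryos, of which CYP19A1 and STAR, enzymes or carriers of steroid synthesis, were the most abundant, and PTX3 had no count in any embryo. A9 had the lowest sum in vivo, 13.9 CPM, C1 had 30.6 CPM and B2 had the highest in serum, 46.3 CPM. Over 24 embryos the Pearson correlation of BTG4 with this sum was 0.19 and that with the total count 0.29 (condition means subtracted). Of the 9 transcripts only ZAR1 had a negative Pearson correlation with the sum (-0.33). The highest were KPNA7 (0.47, Spearman 0.25), NLRP5 (0.36, Spearman 0.48) and H1FOO (0.30, Spearman 0.24). Without B2 the value of BTG4 was 0.06. The blastocyst markers differed between conditions too: 4 of 8 tested were lower in serum than in vivo (KRT8, KRT18, GATA2 and GATA3, log2 fold changes of -3.05, -2.66, -1.98 and -1.88), SOX2 was higher (1.25), where 7.34% of all genes were lower and 6.43% higher. Without B2 the same 5 genes were called, with log2 fold changes of -2.83, -2.46, -1.87, -1.66 and 1.39. In serum-free embryos 0 of 9 was called by edgeR, where 2.2% of genes were. BMP15 had a Pearson correlation of -0.57 with GATA3 over embryos (Spearman -0.40), and BTG4 one of -0.29 (Spearman -0.05). Without B2, which had the highest BMP15 and the lowest GATA3 level in serum, the Pearson values were -0.32 and -0.02 over 23 embryos. The part of these markers in the results was not tested.

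The sexes were compared because the study asked whether male and female embryos respond alike. In males BTG4 had 8, 2, 2, 0 and 0 counts in the 5 in vivo derived embryos and 2591, 965, 324, 290 and 25 in the 5 serum-free embryos. The groups did not overlap, as held, with higher levels in serum-free males, for 1.32% of genes with at least 1 count. OOEP levels did not overlap in males either. The log2 fold change of BTG4 was 8.35 (SE 1.11, edgeR adjusted p = 0.00386), with values of 7.50 to 9.62 when any 1 male was left out. BTG4 and OOEP were both called in males, where 0.653% of 7662 genes were called higher. Both passed the filter only through the serum-free males, where they were high. No in vivo male exceeded 8 BTG4 counts, and only 2 of 5 had at least 15 OOEP counts. With 15 counts required in both groups neither was tested. OOEP was at 2.14 (SE 0.51, edgeR adjusted p = 0.0465), but its call held in only 1 of 10 fits without 1 embryo, with edgeR adjusted p-values of up to 0.124.

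BMP15 in males had 3, 1, 1, 0 and 0 counts in vivo and 437, 143, 78, 40 and 3 in serum-free embryos. The levels did not overlap, as for the same 1.32% of genes with at least 1 count, although those of A1 (0.816 CPM) and C4 (0.836 CPM) nearly met. In the test of all genes with at least 1 count the log2 fold change was 6.88 (SE 0.96, edgeR adjusted p = 0.000748), and the call held without any 1 male. There, 2 of the 9 transcripts were called higher, BTG4 and BMP15, where 0.322% of 18624 genes were.

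In females BTG4 had 3, 2 and 139 counts in vivo and 303, 189 and 21 in serum-free embryos, and these overlapped through A9. The log2 fold change was 1.63 (SE 1.21, edgeR adjusted p = 0.6), and it was 5.87 without A9 (edgeR adjusted p = 0.137). OOEP had 22, 17 and 3 counts in females in vivo and 97, 85 and 79 in serum-free females, which did not overlap, as held for 6.53% of genes with at least 1 count that were higher in serum-free females (6.63% for lower, as for NLRP5). Its log2 fold change of 2.58 (SE 0.65) did not pass (edgeR adjusted p = 0.14), and neither transcript was called in females with the filter of 15 counts, where 0.304% of genes were called. OOEP was called by edgeR's exact test and by DESeq2. With all genes of at least 1 count tested both OOEP and BTG4 were called, where 0.907% of genes were called higher. In this test the SE of BTG4 was 0.45 in place of 1.21, at a log2 fold change of 1.61 (edgeR adjusted p = 0.0271). Its groups overlapped, and this test was not repeated without A9. NLRP5 had 3, 5 and 5 counts in females in vivo and none in serum-free females, and it was not called in that test (edgeR adjusted p = 0.4).

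The difference between the sexes was tested itself. The change of BTG4 in females minus that in males was -6.71 on the log2 scale for serum-free medium (SE 1.86, edgeR unadjusted p = 0.00194), and it did not pass the correction over 8425 genes (edgeR adjusted p = 0.542). The value rested on A9, without which it was -2.45 (SE 2.62, edgeR adjusted p = 0.936). For OOEP it was 0.44 (SE 0.87, edgeR adjusted p = 0.954) in serum-free medium and 0.55 (SE 1.12, edgeR adjusted p = 0.998) in serum. The edgeR interaction test called 0 of all genes in either medium, with 555 and 436 genes at an unadjusted p under 0.05 in serum-free medium and serum. Of the 9 transcripts only BTG4 and OOEP passed its filter in serum-free medium and only OOEP in serum, and DESeq2 called none of these. With all genes of at least 1 count tested, edgeR called none of the 9 in either medium.

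Within serum, KPNA7 had 83, 22, 12, 9 and 6 counts in the 5 females and 0, 0 and 1 in the 3 males, so the sexes did not overlap, as held for 2.7% of genes with at least 1 count that were higher in females. B2 had the 83 counts, and the other females also exceeded every male. Serum females did not overlap the females in vivo either (0, 1 and 3 counts), as held for 5.17% of genes higher in serum. The pooled rate in females was 80.5 times that in males (exact 95% interval 14.2 to 3203, counting error only). The edgeR test did not pass its adjustment (log2 difference 6.12, SE 1.67, edgeR adjusted p = 0.362). Without B2 the pooled rate was 35.8 times that in males (exact 95% interval 6.13 to 1442) and the log2 difference 4.90 (SE 1.78, edgeR adjusted p = 0.363). NLRP5 did not overlap between the sexes in serum either, with 1 to 4 counts in every female and none in any male. These were 12 counts in all, a rate 2.44 times that of a floor of 3 counts over the males. This ratio leaves out the counting error of the 12 counts. With all genes of at least 1 count tested it was not called (log2 difference 4.35, SE 1.91, edgeR adjusted p = 0.67). In vivo, a higher BTG4 level in females was called with all genes of at least 1 count tested (log2 difference 4.32, edgeR adjusted p = 0.0295, 0.34% of genes higher in females), and it was 0.02 without A9 (edgeR adjusted p = 0.998). With the filter of 15 counts none of the 9 transcripts could be tested between males and females in vivo. Only OOEP was tested in serum and only OOEP and BTG4 in serum-free embryos, and none of these was called. The edgeR test called 0.653% of genes in vivo, 0.173% in serum and 0.139% in serum-free embryos. OOEP was not called in males or females in serum against in vivo either (log2 fold changes 1.58 and 2.16, edgeR adjusted p = 0.136 and 0.182, with 13.3% and 0.418% of genes called).

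**Figure D5:**
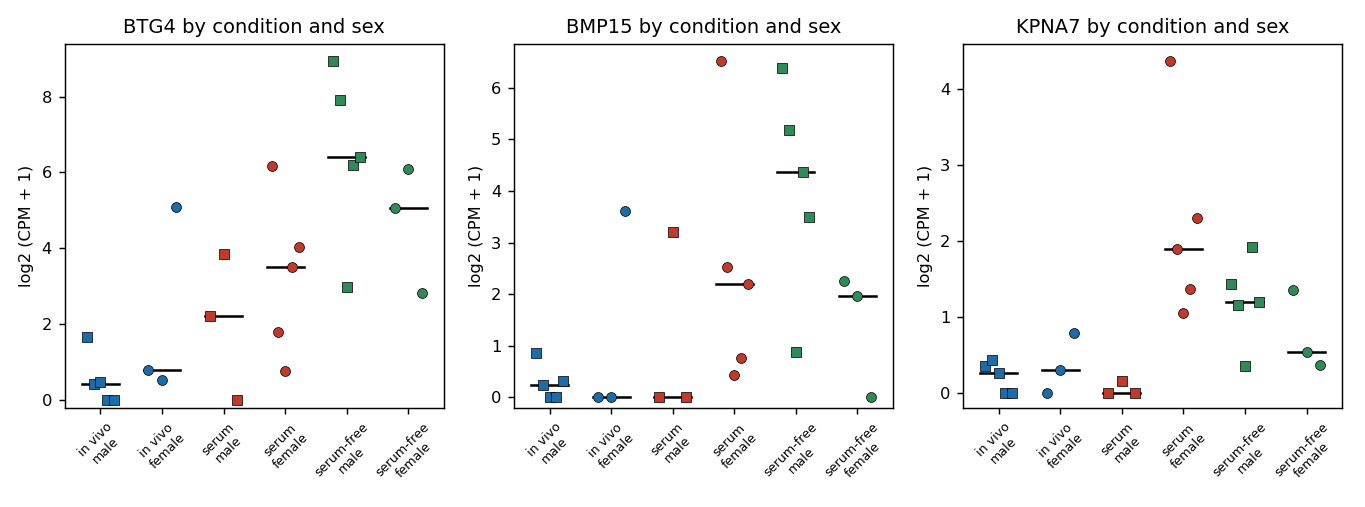
BTG4, BMP15 and KPNA7 in male (squares) and female (circles) embryos of each condition, log2 (CPM + 1), with the median as a bar. BTG4 and BMP15 of male serum-free embryos lie above those of all male in vivo derived embryos, A9 is the high female in vivo, and KPNA7 separates female from male serum embryos.

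The machinery that clears maternal mRNA was also measured, as 27 genes of the CCR4-NOT complex, its recruiters and other decay factors. Of 22 tested in serum, 3 were higher than in vivo: ZCCHC6, a terminal uridylyltransferase (log2 fold change 2.91, edgeR adjusted p = 0.00161), BTG3, a relative of BTG4 (1.78, edgeR adjusted p = 0.00121), and CNOT11, a CCR4-NOT subunit (1.36, edgeR adjusted p = 0.0182), where 6.43% of all genes were higher. Without B2 the same 3 were called, at 1.79, 1.74 and 1.32, and 5.52% of all genes were higher. In serum-free embryos 0 of 21 was called by edgeR against in vivo, where 2.2% of all genes were. The median log2 fold change of the list was 0.26 in serum (0.17 without B2) and 0.04 in serum-free embryos. Between both media, BTG3, ZCCHC6 and BTG1 were higher in serum (1.37, 2.75 and 1.04) and ZFP36L1, a recruiter of CCR4-NOT to AU-rich mRNA, was lower (-1.41), where 8.91% of all genes were called by edgeR in either direction. Without B2, BTG1 was no longer called (0.83, under a 2-fold difference), and BTG3, ZCCHC6 and ZFP36L1 were at 1.32, 1.61 and -1.36. BTG4 itself was lower in serum than in serum-free embryos, a call that several of the fits above lost.

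Relatives of NPM2, H1FOO and KPNA7 that are used by somatic cells were higher in serum in 3 of 8 cases: H1F0, a linker histone (log2 fold change 2.83, edgeR adjusted p = 0.0121), KPNA6, an importin alpha (1.37, edgeR adjusted p = 0.0058), and NPM1, a nucleoplasmin (1.12, edgeR adjusted p = 0.000634), where 6.43% of all genes were higher. Without B2, H1F0 (1.77) and KPNA6 (1.06) were called and NPM1 (0.92) fell under the 2-fold limit. None of 9 was called in serum-free embryos by edgeR, where 2.2% of all genes were. The median log2 fold changes of the list were 0.36 in serum (0.40 without B2) and 0.17 in serum-free embryos. Of 4 tested genes of the pathway in which MOS acts, RPS6KA3, a kinase downstream of MAPK, was higher in serum (2.02, edgeR adjusted p = 0.0052), beside 6.43% of all genes, and was at 1.56 without B2 (edgeR adjusted p = 0.00821).

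A further 35 genes of the oocyte were listed, of which 28 were in the table. With the filter of 15 counts 2 were tested in each comparison with in vivo and neither was called, with median log2 fold changes of 0.03 in serum and -0.06 in serum-free embryos. With all genes of at least 1 count tested, 22 of 28 had a positive log2 fold change in serum-free embryos with a median of 0.79, and 19 of 27 in serum with a median of 0.30. Over all genes in these tests 52.1% and 48.3% were positive, with medians of 0.03 and -0.04. Without B2 the values in serum were 12 of 27 and a median of -0.06, against 47.4% and -0.05 over all genes.

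The genes whose levels varied most like BTG4 over the 24 embryos, after condition means were subtracted and among 7556 genes, were C19H17ORF39 (Pearson 0.74), UBN2 (0.70) and NAMPT (0.68). For OOEP they were SGOL2, a guardian of centromeric cohesion (0.70), ENSBTAG00000014449 (0.70) and ENSBTAG00000045622 (0.69). Libraries were not stranded, so reads of overlapping genes cannot be told apart from those of a transcript: in RefSeq, BTG4 overlaps HOATZ and genes of the miR-34 family, ZAR1 overlaps FRYL and NLRP5 overlaps a non-coding RNA gene.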

How the data were processed

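RNA of single early blastocysts was amplified from 1 ng per embryo with a low-input kit and sequenced. After quality trimming, the authors aligned the reads to UMD 3.1 and deposited raw exon counts of uniquely mapped fragments, not normalised, for each gene in each embryo. All 24 columns were matched to an embryo by name, and condition and sex were taken from the labels. The members and gene lists were chosen with earlier results of these data known.

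Levels (CPM) are counts scaled to 1000000 by the total exon count multiplied by TMM factors over 24 embryos, and logarithms of levels use a pseudocount of 1. Tests were made with edgeR 4.0.16 in R 4.3.3 (TMM, quasi-likelihood test, Benjamini-Hochberg adjustment over all genes tested) with the other groups left out of each fit. The filter on low values was 15 counts in each embryo of 1 group, and calls needed a 2-fold difference at adjusted p under 0.05. Standard errors are approximate, from the F statistics. Genes under the filter were given by counts and by a fit of all genes with at least 1 count. edgeR was tested on simulated counts. Alternatives were the exact test, DESeq2 1.42.0, its size factors, other count limits, a fit over all embryos, sex as a covariate, embryo number as a block, and omission of each embryo. Named genes were all members, at most 4 called genes per list and comparison with the smallest adjusted p-value, the 2 most abundant markers of each marker list, and the 3 genes most correlated with each member that passed the filter. Embryos are separate samples, but the labels tie none to a cow or experiment. Gene overlaps were read from RefSeq (ARS-UCD2.0), by name only.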

Additional observations from a re-analysis of the deposited data

Results flagged for a closer look

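Within a condition of 8 embryos, 16 of 33 groups (each transcript, the number of transcripts detected and their summed level, by condition) held an embryo whose distance from the nearest other embryo exceeded the 95% limit of Dixon's test. Chance flags about 1 in 20 groups only where values are normally distributed. The levels tested were untransformed CPM, skewed towards high values, and several transcripts had no count in many embryos. That rate therefore does not hold here, and the number of flags cannot be set against chance. The transcripts are also measured in the same libraries and so are not independent. All 16 were high values, and none was a number of transcripts detected.

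In vivo derived embryo A9 was flagged for BMP15 (11.2 CPM), BTG4 (33.3 CPM) and NPM2 (7.42 CPM), for which the next embryos had 0.816, 2.18 and 1.19 CPM. Serum embryo B2 was flagged for BMP15 (90.7 CPM), BTG4 (71.0 CPM), NPM2 (10.9 CPM), H1FOO (15.4 CPM) and KPNA7 (19.7 CPM). Serum embryo B7 was flagged for ZAR1 (2.15 CPM, from 7 counts). Serum-free embryo C1 was flagged for GDF9 (10.8 CPM), BMP15 (82.5 CPM), ZAR1 (1.32 CPM, from 7 counts) and NLRP5 (2.83 CPM), and C2 for H1FOO (9.59 CPM). The summed level of the 9 transcripts was flagged in A9 (56.2 CPM, next 10.2 CPM) and B2 (231 CPM, next 38.9 CPM). OOEP was flagged in no condition.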

How the results depend on the processing

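Of 292 log2 fold changes recomputed under the alternatives, 250 kept their direction and their side of the threshold, and 0 were reversed. These cover only transcripts that passed the filter of 15 counts or were called with the limit of 1 count alone. The direction of others could reverse: NPM2 in serum went from 0.63 to -0.86 without B2. With a limit of 1 count, 3 transcripts were called in serum against in vivo in place of 1, 2 in females in serum-free medium in place of 0 (BTG4 at 1.61 and OOEP at 2.56 on the log2 scale), and 1 between the sexes in vivo in place of 0, while OOEP in males in serum-free medium was no longer called (2.09). With at least 15 counts required in both groups, 0 were called in serum, in serum-free medium, between the media and in males in serum-free medium, since OOEP and BTG4 were then left untested or, for OOEP between the media, not called. In females in serum-free medium the exact test and DESeq2 each called 1, OOEP (2.58 and 2.59). A fit over all embryos called 1 in males in serum-free medium (OOEP 2.14, not called). With sex as a covariate 0 were called between the media (BTG4 -2.82). Leave-one-out fits gave 0 to 1 calls between the media (BTG4 -4.18 to -2.29) and 1 to 2 in males in serum-free medium (OOEP 1.92 to 2.52). Counting a transcript as detected from 3 counts gave 3.38 per embryo in vivo and 5.63 in serum-free embryos.

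Embryos with the same number did not deviate together (7 shared numbers per comparison, correlations of -0.127 to 0.088, none above 0.1), so the numbers do not pair the embryos. With the replicate block, 0 transcripts were called between the media (BTG4 -3.70) and 1 in males in serum-free medium (OOEP 2.28, not called). The limit-of-1-count fits without single embryos, and the values without B2 for gene lists, pooled rates, marker correlations and the sexes in serum and without A9 for the interaction, were added after seeing the data. Over all genes, the 1011 calls in serum became 544 with 15 counts required in both groups. The 161 calls in serum-free embryos became 64 in a fit over all embryos, 82 with the replicate block and 94 with 15 counts required in both groups, and the 640 between the media became 29 with the block and 366 with the limit in both groups. With 3 counts at 0.342 to 0.921 CPM, an absence of ZAR1, NLRP5 or H1FOO in an embryo cannot be shown at this depth.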

Other observations

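Among 28 other genes of the oocyte, those that stood out were chosen after their values were seen. OOSP1, a protein secreted by the oocyte, had 0 to 10 counts in vivo (median 3.5), 0 to 18 in serum (median 1.5) and 0 to 399 in serum-free embryos (median 26.5). The highest serum-free embryos were C1 (399), C2 (220) and C6 (74), and the groups overlapped. With all genes of at least 1 count tested, OOSP1 was higher in serum-free than in in vivo derived embryos (log2 fold change 4.43, SE 0.91, edgeR adjusted p = 0.0106), and the call held in 16 of 16 fits without 1 embryo. It was lower in serum than in serum-free embryos (-4.13, edgeR adjusted p = 0.0271), a call lost without C1, C2, B5 or B7. LHX8, a transcription factor of early oocytes, ran the other way, with 14 to 51 counts in vivo and 2 to 20 in serum-free embryos (-2.02, SE 0.51, edgeR adjusted p = 0.0451), a call that held in only 3 of 16 fits without 1 embryo.

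In serum the same test called NLRP8, an oocyte gene of the NLRP family (log2 fold change 3.19, edgeR adjusted p = 0.033), ZP4, a coat protein of the egg (3.39, edgeR adjusted p = 0.0444), and SOHLH1, a transcription factor of germ cells (4.60, edgeR adjusted p = 0.0269). B2 had 798 NLRP8 counts against 2 to 120 in the other serum embryos, and 146 ZP4 counts against 0 to 85. Without B2 the log2 fold changes were 0.93 for NLRP8 (edgeR adjusted p = 0.451) and 1.96 for ZP4 (edgeR adjusted p = 0.217), and NLRP8 was called in 10 and ZP4 in 6 of 16 fits without 1 embryo, the others being those without B2, without in vivo derived embryos (A1, A2, A3, A7 or A8 for NLRP8, any for ZP4) and, for ZP4, without B5. SOHLH1 had 0 counts in all 8 in vivo derived embryos and 29 over the serum embryos. That was a rate 8.40 times that of a floor of 3 counts over the in vivo derived embryos, leaving out the counting error of the 29. The call of SOHLH1 held in 16 of 16 such fits.

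EIF4E1B, a cap-binding protein of oocytes, followed BTG4 most closely among 20 of these genes with a count in at least 12 embryos (Pearson 0.77, Spearman 0.60, condition means subtracted). Its counts were 113 in C1, 51 in C2, 37 in B2 and 21 in A9, out of 24 over all in vivo derived embryos. By contrast LHX8, DPPA3 (260 to 649 CPM in every embryo, a maternal protector of DNA methylation) and TLE6, a further part of the subcortical maternal complex, had correlations with BTG4 of -0.15, -0.15 and -0.09. Markers of the oviduct, blood and sperm were also counted: 9 genes summed to 36.6 CPM in B2 and to 1.72 to 15.6 CPM in the other 23 embryos. OVGP1, an oviduct glycoprotein, led that list, with a mean of 7.80 CPM in serum, 1.25 CPM in vivo and 1.94 CPM in serum-free embryos.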
